A study of Mus musculus with 4 samples.

Results

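Ids, the gene disrupted in the mouse model of mucopolysaccharidosis type II (MPS II, Hunter syndrome), was examined together with other lysosomal enzymes that degrade glycosaminoglycans (GAGs). The set was given by gene name: Ids, Idua, Sgsh, Naglu, Hgsnat, Gusb, Arsb, Galns and Glb1. Of these 9 genes, 8 were found by Entrez identifier among the 12700 genes of the counts table, and counts of Sgsh were not analysed here because the table used does not hold them. RNA-seq counts were available for 4 libraries of C57BL/6 mice aged 9 months. CxH is cerebral cortex (Cx) labelled Ids-/-, CxWT is cerebral cortex labelled wild type, MH is midbrain, diencephalon and hippocampus (M) labelled Ids-/-, and MWT is the same M area labelled wild type. Each library was made from RNA pooled over 7 animals, and both areas were dissected from the same brains, so that by their labels CxH and MH share animals and CxWT and MWT share animals. There was 1 library for each condition, so every test below compares 2 libraries and not 2 conditions, and no p-value is given. The part of Ids that the knock-out allele removes is not given in the sources used here, and the counts, which are summed over the whole gene, cannot show which exons the reads came from.

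GAGs are long sugar chains of proteoglycans that are broken down in lysosomes by enzymes acting in turn on the end of the chain, so that the loss of 1 enzyme stops the steps behind it. Sulfatases remove sulfate groups, glycosidases remove single sugars, and an acetyltransferase modifies glucosamine ends of heparan sulfate before they can be cut. Deficiency of each enzyme gives its own lysosomal storage disease, and those that impair heparan sulfate breakdown affect the brain most.

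Lysosomal genes often carry the 8-base element GTCACGTG (CACGTGAC on the opposite strand), the core of the CLEAR motif recognised by Tfeb and related transcription factors. The promoters of the set are shown first, to give the start of each gene and the genes that carry this element. RefSeq promoters (250 bases before and 50 after the start of a gene, table build GRCm38.p6) were present for 7 of the 9 genes, all but Galns and Hgsnat, and each matched the NCBIM37/mm9 genome exactly once, from which the positions below are taken. The element, searched on both strands, was found in 3 of these 7 promoters, those of Sgsh, Naglu and Glb1. It was found in 2.25% of all 32851 promoters in the table, and its inner 6 bases CACGTG, which lie within the element, in 7.15%. In the 30-base windows below the element is in capitals. They lie on the minus strand at chr11:119216835-119216864 for Sgsh, on the plus strand at chr11:100931322-100931351 for Naglu and on the plus strand at chr9:114310135-114310164 for Glb1.
Sgsh: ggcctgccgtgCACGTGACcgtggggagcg
Naglu: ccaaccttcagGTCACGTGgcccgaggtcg
Glb1: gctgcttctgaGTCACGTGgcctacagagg
The element ended 22 bases before the start site of Sgsh, 68 before that of Naglu and 43 before that of Glb1, counted from the RefSeq starts. The GENCODE vM1 start of Naglu given below lies further upstream, so that the element falls within that gene span. No match to CACGTG was found in the 300 bases of Ids, Arsb, Idua or Gusb. The 250 bases upstream of Ids (minus strand, chrX:67618261-67618510) and of Gusb (minus strand, chr5:130478920-130479169) are given because these 2 genes were the only ones of the set called differentially expressed between any 2 libraries. CpG dinucleotides are in capitals.
Ids: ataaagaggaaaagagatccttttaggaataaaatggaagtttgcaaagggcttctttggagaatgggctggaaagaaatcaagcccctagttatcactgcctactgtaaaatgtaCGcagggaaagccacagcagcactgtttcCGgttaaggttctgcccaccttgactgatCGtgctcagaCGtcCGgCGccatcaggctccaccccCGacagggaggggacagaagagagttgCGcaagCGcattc
Gusb: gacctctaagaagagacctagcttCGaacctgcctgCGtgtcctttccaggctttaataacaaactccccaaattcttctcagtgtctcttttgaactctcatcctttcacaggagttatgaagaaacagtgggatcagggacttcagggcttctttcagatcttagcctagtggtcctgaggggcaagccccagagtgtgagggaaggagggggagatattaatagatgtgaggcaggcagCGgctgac
The Ids stretch held 9 CpG and the Gusb stretch 3, with 50.4% and 49.6% GC. A match, or its absence, describes these letters only.

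The labels were checked before the comparisons. The libraries held between 16380080 (MWT) and 23475080 (CxH) reads on genes, and a floor of 3 reads corresponds to 0.0779 to 0.104 reads per 1e6 aligned reads (RPM). All intervals, standard errors and this floor express only the error of counting. Of 9 markers of cortical excitatory neurons, 9 were called higher in CxH than in CxWT (9.46% of all genes were) and 9 in MH than in MWT (12.3%). They summed to 1933 RPM in CxH and 1806 in MH, but to 276 in CxWT and 229 in MWT. Of 15 markers of midbrain and diencephalon, 14 were called lower in CxH than in CxWT (11.5% of all genes were) and 14 in MH than in MWT (12.7%). A call is defined below. These 15 markers summed to 26.6 RPM in CxH and 38.1 in MH, but to 508 in CxWT and 441 in MWT. En1 had 0 reads in MH. The cortical markers were thus low in CxWT, a library labelled cortex, and high in MH, a library labelled M. Between CxH and MH, and between CxWT and MWT, 0 of the 9 cortical markers were called, and of the 15 markers of midbrain and diencephalon 5 (1 higher and 4 lower) and 3 (all higher) were, where 3.50% and 7.54% of all genes were called. Y-linked genes were read in all 4 libraries. Below, 4 values in a row are those of CxH, CxWT, MH and MWT in this order. The paper counts striatum and hippocampus as parts of M. Yet 7 striatal markers summed to 934, 350, 756 and 345 RPM, high where the cortical markers were high. The 3 hippocampal markers found summed to 43.4, 50.7, 50.2 and 37.0 RPM and did not follow the cortical ones. CxH vs. CxWT and MH vs. MWT are each labelled as a comparison within 1 area. In each, 6 of the 7 striatal markers were called higher. Each thus sets a library with high cortical and striatal and low midbrain markers against one with the reverse. In these pairs area and genotype cannot be told apart. Whether the counts columns carry the labels of other libraries was not tested, and if they do, the meaning of each ratio between libraries changes. The libraries, and Cx and M, are named here as labelled.

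Ids encodes iduronate 2-sulfatase, which removes sulfate from the iduronic acid ends of heparan and dermatan sulfate. It lies on chromosome X from 67596244 to 67618260 on the minus strand (GENCODE vM1, NCBIM37/mm9), with 9 exons in a longest transcript of 4972 bases and 41.4% GC. Ids reads were present in all libraries, also in those labelled Ids-/-. Ids had 5211, 11890, 13752 and 4496 reads. As a level this was 135 RPM in CxH (exact 95% Clopper-Pearson bounds 132 and 139), 354 RPM in CxWT (347 and 360.1), 368 RPM in MH (362 and 374) and 155 RPM in MWT (151 and 159.9). CxH and MWT were low and CxWT and MH high, and the intervals of the 4 libraries did not overlap. Of the 2 libraries labelled Ids-/-, CxH was lower than CxWT, whereas MH was higher than MWT, against its genotype label. At the Ids level, 92.8% of the genes of the table had fewer reads in CxH and 98.5% in MH, so the gene remained well expressed in its lowest library.

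A gene was called between 2 libraries when a Poisson likelihood ratio test of its counts, with the aligned reads as library size, passed 0.05 and the log2 ratio of RPM was at least 0.7 in size. The log2 ratio of Ids was -1.39 ± 0.024 in CxH vs. CxWT (± is the counting standard error), a 2.61-fold lower level in CxH, and it was called down-regulated. In MH vs. MWT the log2 ratio of Ids was 1.24 ± 0.025, 2.37-fold higher in MH, and it was called up-regulated. Ids was 2.72-fold lower in CxH than in MH, with a log2 ratio of -1.44 ± 0.023, and 2.28-fold higher in CxWT than in MWT, with 1.19 ± 0.025. It was not called in the other 2 pairs, with log2 ratios of 0.06 ± 0.018 in MH vs. CxWT and -0.20 ± 0.029 in CxH vs. MWT. Each of the 4 called log2 ratios was more than 1 in size. These comparisons share libraries and are given side by side only.

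**Figure D1:**
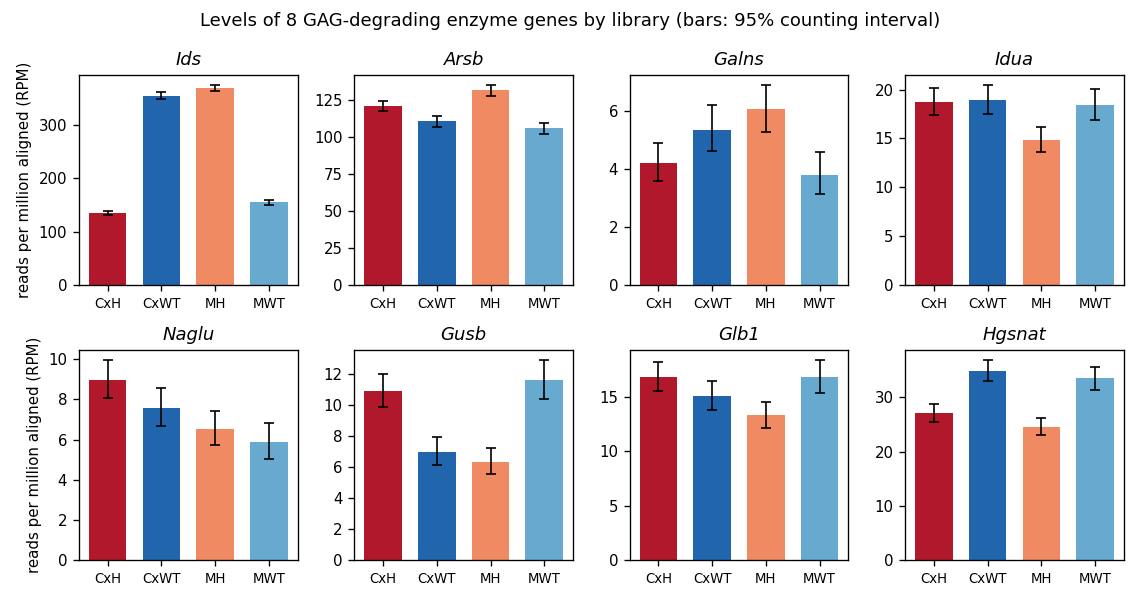
Level of each of the 8 GAG-degrading enzyme genes in RPM (y axis, starting at 0 in every panel) in each of the 4 libraries; error bars are 95% Clopper-Pearson intervals of counting. Ids stood at 135 and 155 RPM in CxH and MWT and at 354 and 368 in CxWT and MH, while Gusb was high in CxH and MWT and low in the other libraries.

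The change of Ids ranked differently among the 10822 genes that had at least 100 reads in every library and a known GC content. In CxH vs. MH only 2 of these genes had a log2 ratio of larger size than Ids, and in CxWT vs. MWT 49 had. In CxH vs. CxWT 350 genes had a larger ratio and in MH vs. MWT 601 had, 2 pairs in which area markers differed. Area markers also differed in the remaining pairs, where Ids was not called. For MH vs. CxWT, 8 of 9 cortical markers were called higher and 14 of 15 midbrain and diencephalon markers lower. There 9458 genes had a ratio of larger size than Ids. For CxH vs. MWT these figures were 9 of 9, 14 of 15 and 8286.

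The other genes of the set showed smaller differences than Ids in the pairs in which Ids was called. In MH vs. CxWT Ids had the ratio of smallest size of the 8 genes, 0.06, against -0.51 for Hgsnat. In CxH vs. MWT, where Ids was at -0.20, Naglu (0.61) and Hgsnat (-0.31) had ratios of larger size. Without Ids, the 7 genes summed to 208, 199.5, 203 and 196 RPM, whereas with Ids the sum was 343, 553, 571 and 351 RPM. Of the reads of the 8 genes, Ids took 39.5% in CxH (Clopper-Pearson interval 38.6 to 40.3) and 44.2% in MWT (43.2 to 45.2), but 63.9% in CxWT (63.2 to 64.6) and 64.4% in MH (63.8 to 65.0).

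**Figure D2:**
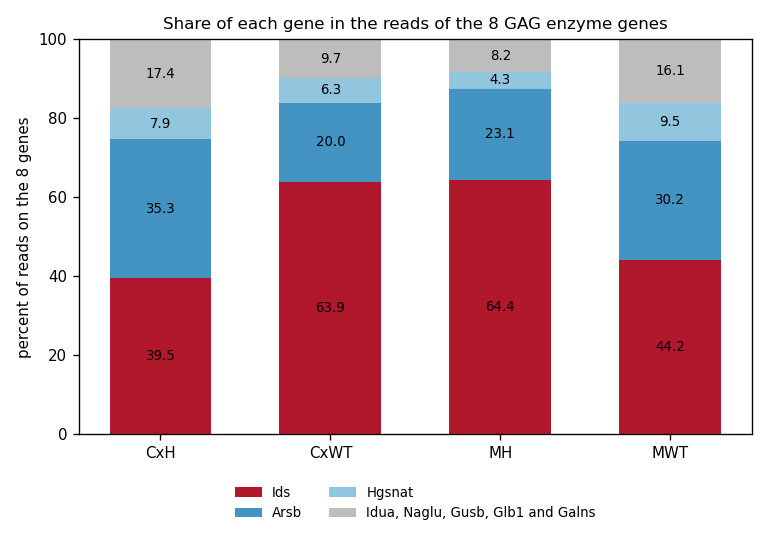
Percent of the reads on the 8 genes (y axis) that fell on Ids, Arsb, Hgsnat and the other 5 genes together in each library; shares are of reads and not corrected for transcript length, so they compare a gene between libraries. The Ids share was 39.5% and 44.2% in CxH and MWT and 63.9% and 64.4% in CxWT and MH.

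In CxH vs. CxWT, 0 of the 8 genes were called higher and 1 lower, where 9.46% and 11.5% of all 12700 genes were called in these directions, 20.9% in either. In MH vs. MWT, 1 was called higher and 1 lower, against 12.3% and 12.7% of all genes, 25.0% in either direction. In CxH vs. MH, 1 was called higher and 1 lower, against 2.43% and 1.06% of all genes, 3.50% in either direction. In CxWT vs. MWT, 1 was called higher and 1 lower, against 5.43% and 2.11%, 7.54% in either direction. None of the 8 genes was called in CxH vs. MWT, where 15.6% of all genes were called higher and 15.1% lower, 30.7% in either direction. None was called in MH vs. CxWT, where 6.41% were called higher and 8.89% lower, 15.3% in either direction. All calls belonged to Ids and Gusb. The median log2 ratio of the 8 genes was 0.06 in CxH vs. CxWT and -0.08 in MH vs. MWT, beside -0.09 and -0.07 over all genes. In CxH vs. MH the median was 0.24 (0.01 over all genes), and in CxWT vs. MWT it was 0.06 (0.04 over all genes).

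**Figure D3:**
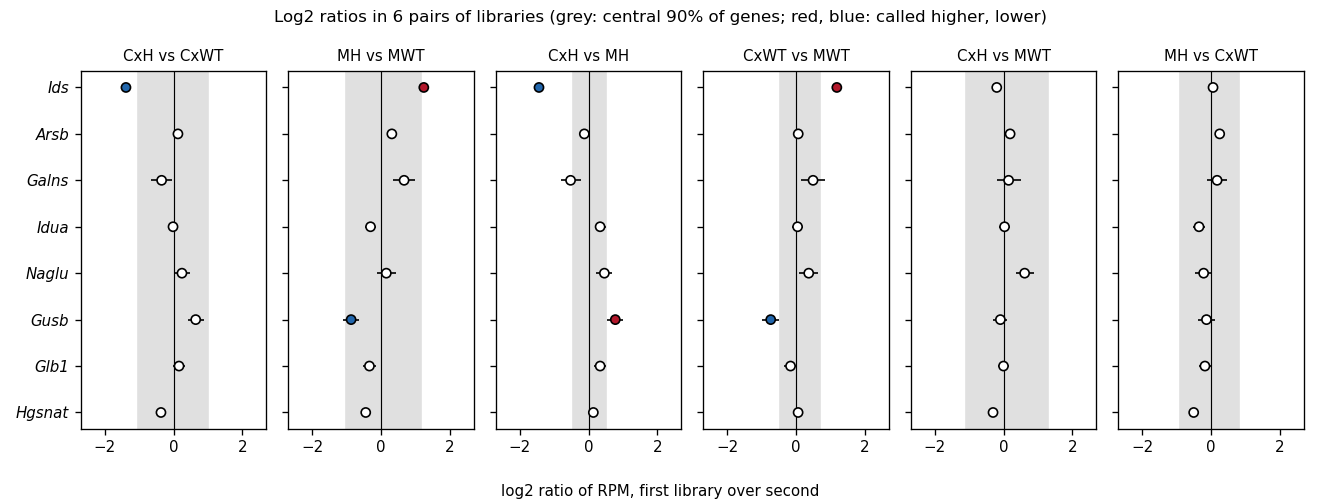
Log2 ratio of RPM (x axis, first library over second) of the 8 genes in the 6 pairs of libraries, with 95% counting intervals as lines; filled points are called higher (red) or lower (blue), and the grey band spans the 5th to 95th percentile of genes that had 100 reads or more in 1 of the pair. Ids lay outside the band in the 4 pairs in which it was called, and inside it in the remaining pairs.

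Among the sulfatases, Arsb (N-acetylgalactosamine-4-sulfatase, which acts on dermatan and chondroitin sulfate and is deficient in MPS VI) was evenly expressed. It lies on chromosome 13 from 94541634 to 94712971. Arsb had 4657, 3722, 4923 and 3068 reads, or 121, 111, 132 and 106 RPM. The order of the libraries was not that of Ids, since CxH was above CxWT. The log2 ratio of Arsb was 0.13 ± 0.032 in CxH vs. CxWT and 0.31 ± 0.033 in MH vs. MWT, and its largest ratio among the 6 pairs was the latter.

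Galns (N-acetylgalactosamine-6-sulfatase, which acts on keratan sulfate and chondroitin sulfate and is deficient in MPS IVA) had the lowest mean level of the set per length. It lies on chromosome 8 from 125102138 to 125135304. Galns had 162, 180, 226 and 110 reads, or 4.21, 5.35, 6.05 and 3.80 RPM. CxH and MWT were the low libraries, as for Ids, but the 95% intervals of CxH and CxWT overlapped. Galns was called in none of the 6 pairs: its log2 ratio was -0.35 ± 0.16 in CxH vs. CxWT and 0.67 ± 0.17 in MH vs. MWT, the latter just under the threshold. In CxH vs. MH it was -0.52 ± 0.15.

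Among the glycosidases, Gusb (beta-glucuronidase, which removes glucuronic acid and is deficient in MPS VII) was the only gene besides Ids that was called. It lies on chromosome 5 from 130464881 to 130478919. Gusb had 419, 234, 237 and 336 reads, or 10.9, 6.96, 6.34 and 11.6 RPM. The libraries low for Ids, CxH and MWT, were the high ones for Gusb, and the intervals of these 2 libraries did not overlap those of CxWT and MH. The log2 ratio of Gusb was -0.87 ± 0.12 in MH vs. MWT (down-regulated), 0.78 ± 0.12 in CxH vs. MH (up-regulated) and -0.74 ± 0.12 in CxWT vs. MWT (down-regulated). In CxH vs. CxWT it was 0.64 ± 0.12, under the threshold, and with TMM or DESeq2 scaling it was 0.74 or 0.73 and called. With a log2 threshold of 1, Gusb was called in none of the pairs, and with an assumed coefficient of variation of 0.2 between pools it was called in MH vs. MWT only.

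The summed levels of markers of microglia, astrocytes and endothelium were, like Gusb, higher in CxH and MWT, but many of the astrocyte and endothelial markers did not follow their sums. The summed level of 14 microglial genes was 765 RPM in CxH and 630 in MWT, against 454 in MH and 395 in CxWT, and none of the 14 was at 0 reads in any library. Of these genes, 10 of 14 were called higher in CxH than in CxWT (9.46% of all genes were), 5 of 14 lower in MH than in MWT (12.7%), 9 of 14 higher in CxH than in MH (2.43%), and 6 of 14 lower in CxWT than in MWT (2.11%). Not all followed the sum: Cx3cr1, P2ry12, Tmem119 and Csf1r, chosen after their values were seen, were at higher levels in MH than in MWT. The 9 astrocyte markers summed to 4027 RPM in CxH and 3744 in MWT, against 3269 in MH and 3011 in CxWT. Slc1a2 and Aldoc were the most abundant of them in every library, followed by Gfap in CxH and MWT and by Slc1a3 in CxWT and MH. Their median level was in another order, highest in MWT at 353 RPM, then 237 in CxWT, 166 in MH and 155 in CxH. In CxH vs. CxWT, 5 of the 9 had a ratio above 0, with 2 called higher and 1 lower, and Aqp4, Gja1, S100b and Gjb6 were at lower levels in CxH. In MH vs. MWT, 3 of the 9 were called lower, and Slc1a2, Slc1a3 and Aldh1l1 were at higher levels in MH. The 9 endothelial markers summed to 259 RPM in both CxH and MWT, against 221 in MH and 210.3 in CxWT. Of these, 7 had a ratio above 0 in CxH vs. CxWT, with 2 called higher, and 5 had a ratio above 0 in MH vs. MWT, with 1 called lower, so that most endothelial markers ran opposite to Gusb in the M pair. The part of these cell types in the Gusb values was not tested. In such bulk libraries more cells of a type and more RNA per cell cannot be told apart.

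Idua (alpha-L-iduronidase, which removes the iduronic acid that Ids has desulfated and is deficient in MPS I) lies on chromosome 5 from 109089350 to 109113576. Idua had 722, 637, 555 and 532 reads, or 18.8, 18.9, 14.9 and 18.4 RPM, so that MH alone was low. Its log2 ratio was -0.02 ± 0.078 in CxH vs. CxWT and -0.31 ± 0.088 in MH vs. MWT. Its largest log2 ratio among the 6 pairs was -0.35 ± 0.084 in MH vs. CxWT.

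Naglu (alpha-N-acetylglucosaminidase, an enzyme of heparan sulfate deficient in MPS IIIB) lies on chromosome 11 from 100931326 to 100938986. Naglu had 346, 255, 244 and 170 reads, or 8.99, 7.59, 6.53 and 5.87 RPM. Its largest log2 ratio was 0.61 ± 0.14 in CxH vs. MWT, and it was 0.24 ± 0.12 in CxH vs. CxWT and 0.15 ± 0.14 in MH vs. MWT. Naglu had the highest GC content of the set, 59.8%, and after correction for GC content and length these 3 ratios were -0.11, -0.07 and -0.35.

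Glb1 (beta-galactosidase, which acts on keratan sulfate and on gangliosides and is deficient in MPS IVB and GM1 gangliosidosis) lies on chromosome 9 from 114310194 to 114383495. Glb1 had 647, 506, 497 and 487 reads, or 16.8, 15.1, 13.3 and 16.8 RPM. Its log2 ratio was 0.16 ± 0.086 in CxH vs. CxWT and -0.34 ± 0.092 in MH vs. MWT. MH was its lowest library, as for Idua.

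Hgsnat (heparan-alpha-glucosaminide N-acetyltransferase, a membrane enzyme deficient in MPS IIIC) lies on chromosome 8 from 27054931 to 27087216. Hgsnat had 1042, 1173, 918 and 969 reads, or 27.1, 34.9, 24.6 and 33.5 RPM. It was lower in both libraries labelled Ids-/- than in both labelled wild type, with log2 ratios of -0.37 ± 0.061 in CxH vs. CxWT and -0.45 ± 0.066 in MH vs. MWT, none of them called. Oligodendrocyte markers ran in the same direction, with 7 of 9 called lower in CxH than in CxWT and 4 of 9 in MH than in MWT. So did the markers of midbrain and diencephalon, with 14 of 15 called lower in each of these pairs. Of all genes, 11.5% and 12.7% were called lower in the same pairs. The part of either list in the Hgsnat values was not tested.

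Levels were compared between genes as RPM per kilobase of the longest transcript. The mean over the 4 libraries was 50.9 for Ids (27.2 to 74.0), 29.4 for Arsb (26.6 to 33.0), 11.2 for Hgsnat, 6.47 for Glb1, 5.02 for Idua, 3.33 for Gusb, 2.83 for Naglu and 1.99 for Galns. Ids was above Arsb in 3 libraries and below it in CxH, where it had 27.2 and Arsb 30.3 RPM per kilobase. Gusb and Naglu did not differ beyond their counting intervals in 3 libraries, and Glb1 and Idua, Idua and Gusb, and Naglu and Galns overlapped in 1 library each. Gusb stood 6th of the 8 genes in CxH and MWT, 7th in CxWT and 8th in MH. With the median length of the coding transcripts, Arsb rose to 42.7 and Gusb to 4.40, and the order of the means was the same, but Ids was then below Arsb in MWT as well (31.6 and 38.5 RPM per kilobase).

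GC content moved with the ratios of all genes, to an extent that differed between pairs. Across the 10822 genes, Spearman's rho between GC content and the log2 ratio was 0.461 in CxH vs. CxWT, 0.486 in MH vs. MWT, 0.627 in CxWT vs. MWT, 0.582 in CxH vs. MH, 0.685 in CxH vs. MWT and only 0.163 in MH vs. CxWT, a description over genes of the same libraries. Ids has the lowest GC content of the set. After correction for GC content and length, its log2 ratios were -1.03 in CxH vs. CxWT, 1.55 in MH vs. MWT, -1.17 between CxH and MH, and 1.41 between CxWT and MWT, all still past the threshold. In CxH vs. MWT the corrected value was 0.38 in place of -0.20. The corrected Gusb ratios were 0.57, -0.89, 0.71 and -0.74 in the same 4 pairs.

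**Figure D4:**
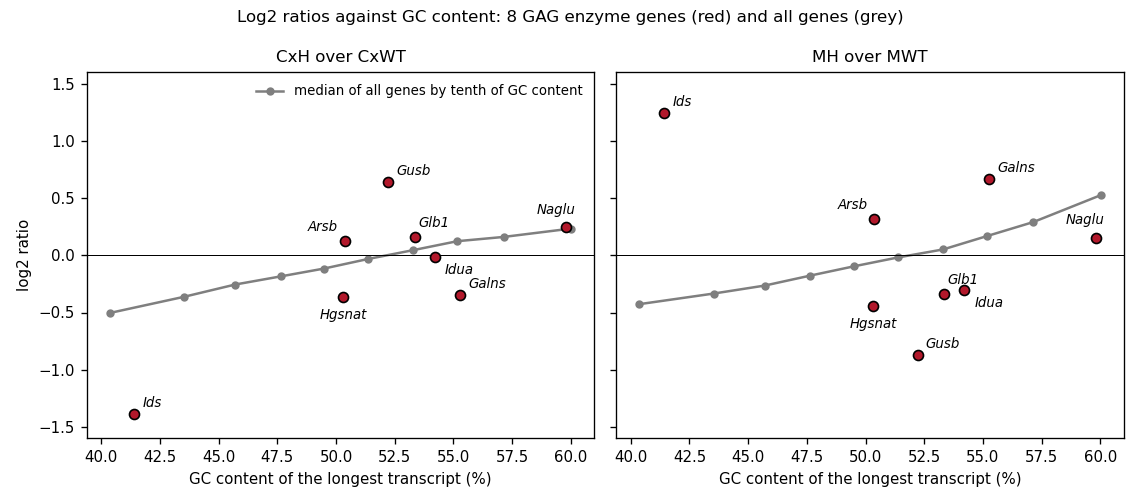
Log2 ratio (y axis) against GC content of the longest transcript in percent (x axis) for the 8 genes (red) and as medians of all genes in 10 bins of GC content (grey line), in CxH over CxWT (left) and MH over MWT (right). The grey line rises with GC content in both panels, and Ids, at 41.4% GC, lies below it in the left panel and above it in the right.

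The counting kept reads that aligned to a single gene. Stretches of at least 50 bases and 96% identity elsewhere in the genome covered 196 bases, or 3.94%, of the Ids transcript and 97 bases, or 2.43%, of the Arsb transcript, and none of the transcripts of the other 6 genes. Strand was not stated in the counting, so reads of genes overlapping on the other strand cannot be told apart.

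The genes next to Ids on chromosome X were examined, 3 on each side in the table: Slitrk2, Fmr1 and Aff2, and Eola1, Mamld1 and Mtm1. Eola1, the nearest, lies 20.8 kilobases away. None of the 6 was called between CxH and MH or between CxWT and MWT, where 3.50% and 7.54% of all genes were, so 0 of 6 is near the background. Aff2 was lower in CxH vs. CxWT and in MH vs. MWT (log2 ratios of -1.17 ± 0.13 and -1.04 ± 0.13), and so was Mtm1 (2.01-fold lower, and a log2 ratio of -0.84 ± 0.15). Mamld1 was higher in MH vs. MWT, at 1.27 ± 0.091. Of all genes, 20.9% were called in either direction in CxH vs. CxWT and 25.0% in MH vs. MWT. After the GC and length correction, the ratios of Mtm1 were -0.50 and -0.35, under the threshold, while those of Aff2 and Mamld1 stayed past it (-1.16 and -1.06 for Aff2, and 1.20 in MH vs. MWT for Mamld1).

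The genes with the pattern most like that of Ids over the 4 libraries were found by the root mean square distance of log2 RPM centred on the mean, among 11995 genes with at least 100 reads in some library. They were Gkn3 at a distance of 0.212, Ttc13 at 0.253, Pdcl at 0.256, Izumo4 at 0.271 and Fam71e1 at 0.278. Ttc13 had 531, 841, 1107 and 491 reads, and Pdcl 769, 1481, 1472 and 772. Gkn3, the closest, had few reads, with 58, 108, 103 and 37, and so had Fam71e1, with 62, 127, 98 and 46. Both reached 100 reads only in libraries high for Ids, so the read minimum let them in through those libraries.

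**Figure D5:**
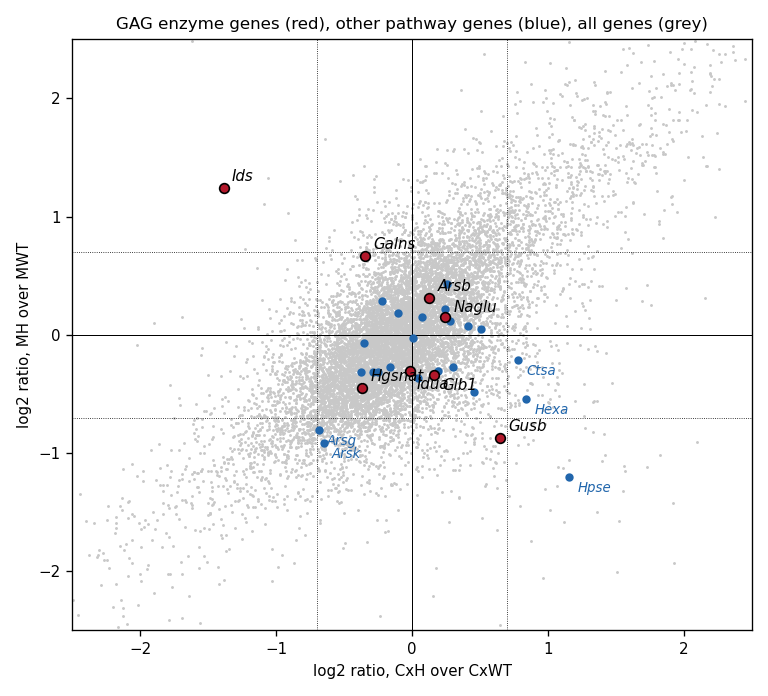
Log2 ratio in MH vs. MWT (y axis) against that in CxH vs. CxWT (x axis) for the 8 GAG enzyme genes (red), 23 other genes of the pathway (blue) and 11995 genes with at least 100 reads in some library (grey), of which 171 lie outside the axes; dotted lines mark a log2 ratio of 0.7 in size. Ids lies at the upper left, at -1.39 and 1.24, and Gusb and Hpse lie at the lower right.

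The remaining genes of GAG breakdown and of enzyme delivery were taken from lists of 27 genes, of which 23 were in the table. In CxH vs. CxWT 3 of the 23 were called higher and 0 lower, and in MH vs. MWT 0 were called higher and 3 lower. Of all genes, 9.46% were called higher and 11.5% lower in the former pair, and 12.3% and 12.7% in the latter, so 3 of 23 is near the background. In CxH vs. MH 3 of the 23 were called higher (Hexa, Hpse and Nagpa) and 0 lower, against 2.43% and 1.06% of all genes. In CxWT vs. MWT 0 were called higher and 1 lower (5.43% and 2.11% of all genes). In CxH vs. MWT 1 was called higher and 1 lower (15.6% and 15.1%), and in MH vs. CxWT 0 and 1 (6.41% and 8.89%). The median log2 ratio of the 23 was 0.07 in CxH vs. CxWT and -0.27 in MH vs. MWT. All 3 called in MH vs. MWT and 2 of the 3 in CxH vs. CxWT belonged to the other enzymes of GAG breakdown, of which 8 were in the table.

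Hpse, which encodes heparanase, an endoglycosidase that cuts heparan sulfate chains internally, had 166, 65, 71 and 127 reads. CxH and MWT were the high libraries, as for Gusb. Its log2 ratio was 1.16 ± 0.21 in CxH vs. CxWT, -1.21 ± 0.21 in MH vs. MWT, -1.18 ± 0.22 in CxWT vs. MWT and 1.18 ± 0.20 in CxH vs. MH, all called. The summed levels of the microglial, astrocyte and endothelial markers given above were also higher in CxH and MWT, with the same exceptions among the single markers, and their part in the Hpse values was not tested.

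Hexa, a lysosomal hexosaminidase gene, had 2588, 1261, 1329 and 1503 reads, or 67.2, 37.5, 35.6 and 51.9 RPM. CxH was the highest library and MWT the next. Its log2 ratio was 0.84 ± 0.050 in CxH vs. CxWT (called) and -0.55 ± 0.054 in MH vs. MWT (not called), and it was 0.92 ± 0.049 in CxH vs. MH (called). After the correction the Hexa ratio in CxH vs. CxWT was 0.68, under the threshold, and that in CxH vs. MH was 0.76, still past it.

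Ctsa encodes cathepsin A, which protects Glb1 and the sialidase Neu1 in a complex. Ctsa had 3459, 1760, 2143 and 1927 reads and a log2 ratio of 0.78 ± 0.042 in CxH vs. CxWT (called; 0.61 after the correction) and -0.21 ± 0.045 in MH vs. MWT. Neu1 was not called in either pair, and neither was Glb1.

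The lysosomal sulfatases Arsg and Arsk, which act on heparan sulfate and on uronate 2-sulfate groups, were called lower in MH vs. MWT. Arsg had 1001, 1406, 891 and 1209 reads and log2 ratios of -0.69 ± 0.060 in CxH vs. CxWT and -0.81 ± 0.064 in MH vs. MWT. After the correction the Arsg ratios were -0.74 and -0.83, both past the threshold. Arsk had 262, 359, 269 and 394 reads and log2 ratios of -0.65 ± 0.12 and -0.92 ± 0.11, which became -0.20 and -0.47 after the correction. Both genes had ratios of the same sign in the 2 pairs, unlike Ids.

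Sumf1 and Sumf2, of which Sumf1 activates all sulfatases by forming their catalytic formylglycine and Sumf2 is its paralogue, were not called, with log2 ratios between -0.27 and 0.28 in the 2 pairs. Gnptab, Gnptg, Nagpa, M6pr and Igf2r mark lysosomal enzymes with mannose 6-phosphate or carry them to the lysosome. None of these 5 genes was called in CxH vs. CxWT or MH vs. MWT, where their ratios ran from -0.35 to 0.50. Nagpa was called higher in CxH vs. MH (0.80 ± 0.12) and in CxH vs. MWT (0.85 ± 0.13), where 2.43% and 15.6% of all genes were. After the correction these Nagpa ratios were 0.56 and 0.10, under the threshold. Of all genes, 20.9% were called in CxH vs. CxWT and 25.0% in MH vs. MWT. The absence of calls in the short lists of this paragraph is therefore not read as a result. Tfeb, Tfe3 and Mitf, transcription factors of lysosomal genes, were not called in these pairs either, with ratios from -0.31 to 0.43. Arsa, Sulf1 and Sulf2, sulfatases of other substrates, were not called, with ratios from -0.37 to 0.41. In their promoters the 8-base element was found for 6 of the 21 genes of these lists with an entry: Sumf1, Gnptg, Nagpa, Igf2r, Ctsa and Arsa.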

How the data were processed

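Pooled brain RNA was sequenced with SOLiD 3 Plus, 1 library for each of the 4 conditions, and the libraries were grouped by their GEO labels. The authors aligned the reads to NCBI37/mm9 with PASS 2.10 (best hit, at most 2 mismatches, no gap) and deposited counts, the reads aligned to a single gene, keeping genes with over 50% of the length covered. Their gene annotation is not given in the sources used here. Here Entrez identifiers were matched to RefSeq symbols (12690 of 12700), and positions, GC content and length came from GENCODE vM1 (12362 genes with a coding transcript). RPM are counts over the aligned reads the study lists. Each pair of libraries was tested over all genes, with a count of 0 set to 1 for the ratio. Copies were sought with BLAST 2.17.0. Alternatives were column totals, TMM (edgeR 4.0.16), DESeq2 1.42.0 size factors, a log2 threshold of 1, at least 100 reads, 0.5 added, Benjamini-Hochberg adjustment, edgeR's exact test with an assumed coefficient of variation of 0.1 or 0.2, and a GC and length correction. The steps were tested on simulated data. Genes described with their values are all members in the table, the Ids neighbours, the 5 nearest patterns and some listed pathway genes. Those pathway genes are the ones called in CxH vs. CxWT or MH vs. MWT, and Nagpa, called in other pairs. The other listed genes are given by counts and range. One gene of the lists entered the counts and medians but is not reported by name here. Members and lists were chosen with earlier results of these data known. Python 3.11.15 and R 4.3.3 were used.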

Additional observations from a re-analysis of the deposited data

Results flagged for a closer look

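Several genes had ratios of opposite sign in CxH vs. CxWT and in MH vs. MWT, with both ratios past their counting error. The difference between these 2 pairs was not tested, since each condition had 1 library. Ids had log2 ratios of -1.39 and 1.24 and Gusb of 0.64 and -0.87. Galns had log2 ratios of -0.35 and 0.67. Among the other genes of the pathway, the log2 ratios were 0.84 and -0.55 for Hexa, 1.16 and -1.21 for Hpse, 0.78 and -0.21 for Ctsa, and 0.19 and -0.30 for Sulf1. Ids and Galns were lower in CxH and higher in MH than in CxWT and MWT, respectively, and the other 5 genes named here ran the opposite way.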

How the results depend on the processing

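The calls of Ids were the same under all alternatives run, with log2 ratios from -1.40 to -1.03 in CxH vs. CxWT and from 1.18 to 1.55 in MH vs. MWT. The count of genes of the set called in CxH vs. CxWT was 2 in place of 1 with TMM factors and with DESeq2 size factors, by the addition of Gusb. With a log2 threshold of 1 the count was 1 in place of 2 for CxWT vs. MWT, MH vs. MWT and CxH vs. MH alike, and with an assumed coefficient of variation of 0.2 it was 1 for CxH vs. MH and for CxWT vs. MWT. In each case Gusb was lost. In MH vs. MWT, Galns was also past the threshold with TMM factors and with DESeq2 size factors, at 0.73 with both. None of the called ratios changed sign, while 18 values that were not called did. Scaling moved the median of all genes by over 0.1 in CxH vs. MWT (-0.11 with column totals) and in MH vs. CxWT (0.11 with TMM and with DESeq2). In CxH vs. CxWT, 45.2% of the called genes were higher, and 56.0% with TMM. With column totals this share went from 72.0% to 55.2% in CxWT vs. MWT, from 69.6% to 58.4% in CxH vs. MH and from 50.8% to 39.1% in CxH vs. MWT, and with DESeq2 from 45.2% to 55.4% in CxH vs. CxWT and from 41.9% to 54.4% in MH vs. CxWT. No paired analysis was run, since each condition had 1 library and the labels carry no replicate numbers. By the labels, the Cx and M pools of a genotype nevertheless share animals. Without replicates, variation between pools could not be measured. At 110 to 226 reads, the precision of Galns is the lowest of the set.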
